A study of Zea mays with 2 samples.

Results

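The 19-kDa z1A alpha zeins are storage proteins of the maize (Zea mays) kernel, and 7 genes of this subfamily, chosen by gene identifier, were followed among the 41406 genes measured. Endosperm RNA at 12 days after pollination was sequenced from dek40 mutant kernels (1 library) and from wild-type kernels (WT, 1 library). The sample labels name the mutant dek40, while the series title names dek41, so it is called here the library labelled dek40. The sources used here give neither the kind of allele, nor the background strain, nor how many kernels were pooled. Levels are given as deposited, as RPKM (read numbers corrected for gene length and sequencing depth) for dek40 and as FPKM (the same for fragments) for WT. With 1 library per genotype there was no replicate, so no difference has a test and each describes these libraries only.

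Zeins are the prolamins of maize, which cells of the starchy endosperm make on the rough endoplasmic reticulum and pack into protein bodies. Alpha zeins fill the core of a protein body, while beta and gamma zeins form its outer layer. They are rich in glutamine and leucine and almost free of lysine, so their amount sets much of the nutritional quality of the grain. The 19-kDa alpha zeins fall into the subfamilies z1A, z1B and z1D, and the 22-kDa alpha zeins form the subfamily z1C. Each is a family of close copies, in which reads can fall on more than 1 gene, so the split of reads between single z1A copies is uncertain.

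All 7 z1A genes were far lower in the library labelled dek40. Their summed level was 7826 RPKM in dek40, against 70865 FPKM in WT. The 7 genes together made up 0.565% of the summed level of all genes in dek40, against 4.92% in WT. As deposited, the median gene at a level of 1 or more in both libraries was 1.34-fold higher in dek40, so the dek40 values were multiplied by 0.747 and all log2 ratios, dek40 over WT with a pseudocount of 1, are relative to that median. On this scale the z1A sum was 12.1-fold lower in dek40, and the median of the 7 log2 ratios was -3.59, against 0.02 for the 28178 genes at a level of 1 or more in either library. A gene was called lower at 2-fold or more, which 7 of 7 z1A genes were, against 4.99% of all genes, and 0 of 7 were higher by 2-fold, against 6.33% of all genes. At 8-fold or more, 7 of 7 were lower, against 0.209% of all genes. As deposited, without the scaling, 5 of the 7 passed 8-fold.

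The 7 identifiers all matched entries of a RefSeq gene table, which places them on the same chromosome in separate clusters named z1A1, with 5 genes of the list, and z1A2, with 2. The identifier GRMZM2G059620 belongs to a pair of table entries, z1A1_3 and z1A1_4, so its value may stand for more than 1 copy. The entries z1A1_4, z1A1_5, z1A1_6 and z1A1_7 follow each other with 0 other genes between neighbours.

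GRMZM2G059620, described as Zein-alpha 19B1, was the most abundant of the 7, at 2079 RPKM in dek40, against 18885 FPKM in WT. Its log2 ratio was -3.60, with a counting interval of -3.64 to -3.57. Intervals of ratios are exact 95% binomial ones from the smallest whole reads that give the ratio. They have no pseudocount and cover counting error only. The smallest reads are a lower bound, so an interval can be too wide. This gene ranked 29 among all genes by level in dek40, against 12 in WT.

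GRMZM2G053120 (z1A1_5), whose protein is described as Zein-alpha PMS1, was at 1366 RPKM in dek40, against 12321 FPKM in WT. Its log2 ratio was -3.59 (-3.62 to -3.57), so its interval overlapped that of GRMZM2G059620. Its neighbour GRMZM2G353272 (z1A1_6) carries the same description and is the gene of the floury4 mutant, in which a defective alpha zein gives an opaque, soft kernel. It was at 1293 RPKM in dek40, against 11203 FPKM in WT, a log2 ratio of -3.53 (-3.57 to -3.50).

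GRMZM2G353268 (z1A1_7), described as Zein-alpha A30, was the copy with the lowest ratio. It was at 1007 RPKM in dek40, against 11192 FPKM in WT, a log2 ratio of -3.89 (-3.92 to -3.87) or 14.9-fold lower. No other z1A interval overlapped this one. In dek40 the level of its neighbour GRMZM2G353272 was 1.28 times its own, against 1.00 times in WT, so these copies stood level in WT and apart in dek40. It was the fifth copy by level in dek40 and the fourth in WT, and GRMZM2G008341 took the other of these places in each library.

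GRMZM2G008341 (z1A2_1), described as Zein-alpha 19A2, was at 1223 RPKM in dek40, against 10987 FPKM in WT. Its log2 ratio of -3.59 (-3.63 to -3.54) had an interval that overlapped those of GRMZM2G059620, GRMZM2G053120 and GRMZM2G353272, which belong to the other cluster. The remaining z1A2 gene of the list, GRMZM2G008913 (z1A2_2, Zein-alpha PMS2), was at 478 RPKM in dek40, against 3394 FPKM in WT. Its log2 ratio of -3.25 (-3.29 to -3.21), or 9.49-fold lower, was the nearest to 0 of the 7.

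GRMZM2G404459 (z1A1_2, Zein-alpha Z4) was the least abundant of the 7, at 381 RPKM in dek40, against 2883 FPKM in WT. Its log2 ratio was -3.33 (-3.38 to -3.29), which overlapped only the interval of GRMZM2G008913 among the copies. By the sums over each cluster, the z1A1 genes were 12.3-fold lower and the z1A2 genes 11.3-fold lower.

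**Figure D1:**
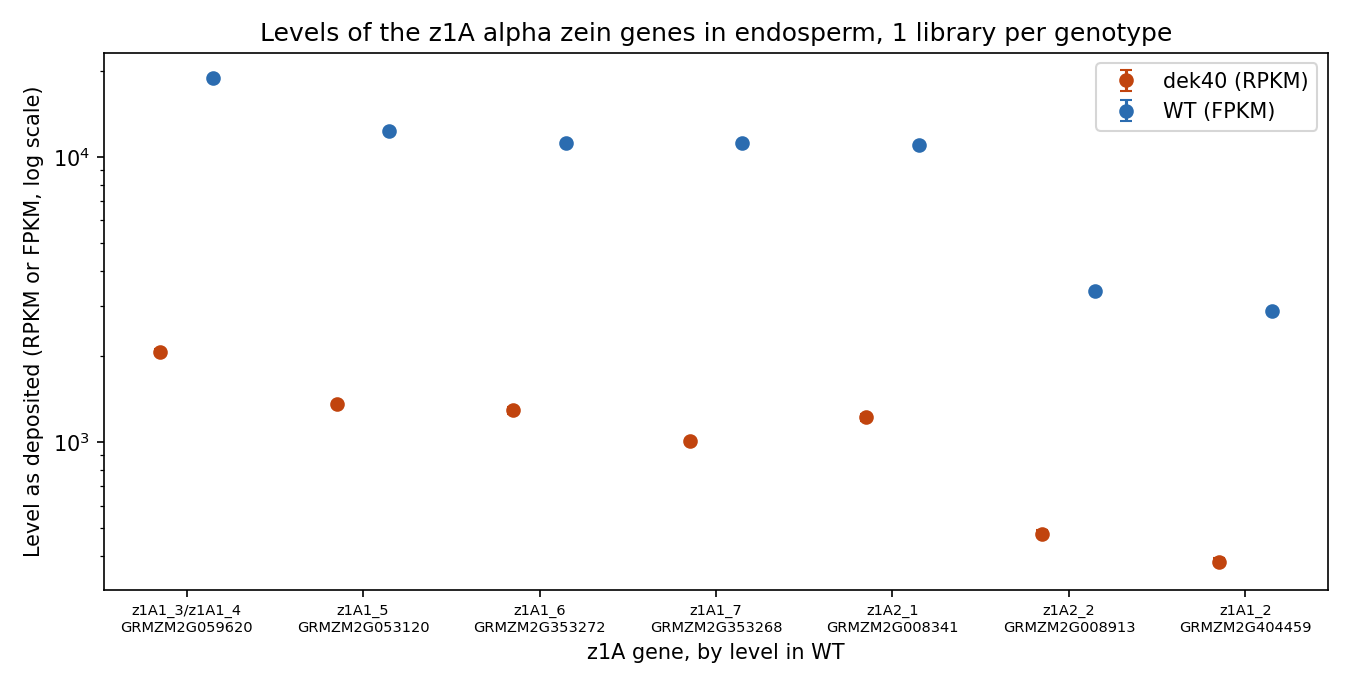
Level of each z1A gene (log axis, RPKM for dek40, FPKM for WT) in the library labelled dek40 and in WT, ordered by level in WT. Bars are 95% Poisson counting intervals and are mostly hidden by the points. The dek40 points lie between 381 and 2079 RPKM and the WT points between 2883 and 18885 FPKM, so the groups do not overlap.

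The copies were lower by similar but not equal amounts. Their log2 ratios spread over 0.65, with a mean of -3.54 ± 0.21 (SD over 7 genes of the same pair of libraries, which are not replicates). Of the 21 pairs of copies, 14 had ratio intervals that did not overlap and 7 had intervals that did. Lengths limited by the RefSeq gene models put the reads of GRMZM2G059620 and GRMZM2G008341 at 3 times their smallest whole reads. Those of GRMZM2G353272 came out at 2 times. The intervals of these copies can thus be too wide, and some of the 7 overlaps may rest on that. Intervals from the larger reads were not computed. The 5 copies at 10000 FPKM or more in WT had log2 ratios of -3.89 to -3.53, and the other 2 had -3.33 and -3.25. The WT level is also the denominator of these ratios, so level and ratio are not independent here. Counting error is small at these depths, with at least 4056 reads per copy in dek40 and at least 36233 in WT, and it leaves out the spread between kernels and between library preparations, which was not measured.

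**Figure D2:**
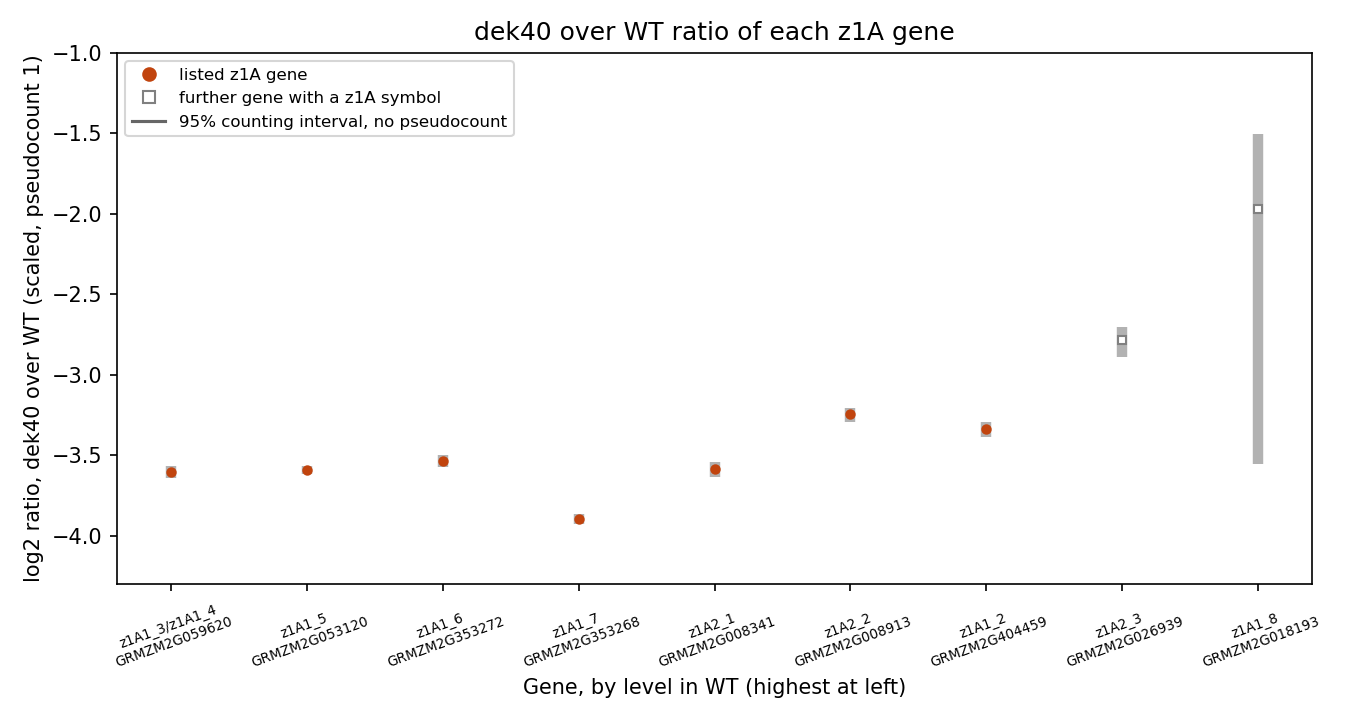
Log2 ratio of dek40 over WT (scaled to the median gene, pseudocount 1) for the 7 listed z1A genes (filled circles) and 2 further genes with a z1A symbol (open squares), ordered by level in WT from the highest at left, with 95% counting intervals as bars. GRMZM2G353268 is lowest at -3.89, and the genes at lower levels in WT lie nearer to 0, as far as -1.97 for GRMZM2G018193. The pseudocount draws that last ratio toward 0, while its interval has none. The level in WT is also the denominator of each ratio.

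The relative contributions of the copies changed little beside the fall of the whole subfamily. GRMZM2G059620 made up 26.6% of the z1A sum in dek40 and 26.6% in WT, and GRMZM2G053120 made up 17.5% in dek40 and 17.4% in WT. GRMZM2G353268 had 12.9% in dek40, against 15.8% in WT, a difference of -2.93 percentage points. The share of GRMZM2G008913 was 6.10% in dek40, against 4.79% in WT, and that of GRMZM2G404459 was 4.87% in dek40, against 4.07% in WT. The 5 abundant copies together gave 89.0% of the z1A sum in dek40, against 91.1% in WT. The level of the highest copy was 5.45 times that of the lowest in dek40, against 6.55 times in WT.

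**Figure D3:**
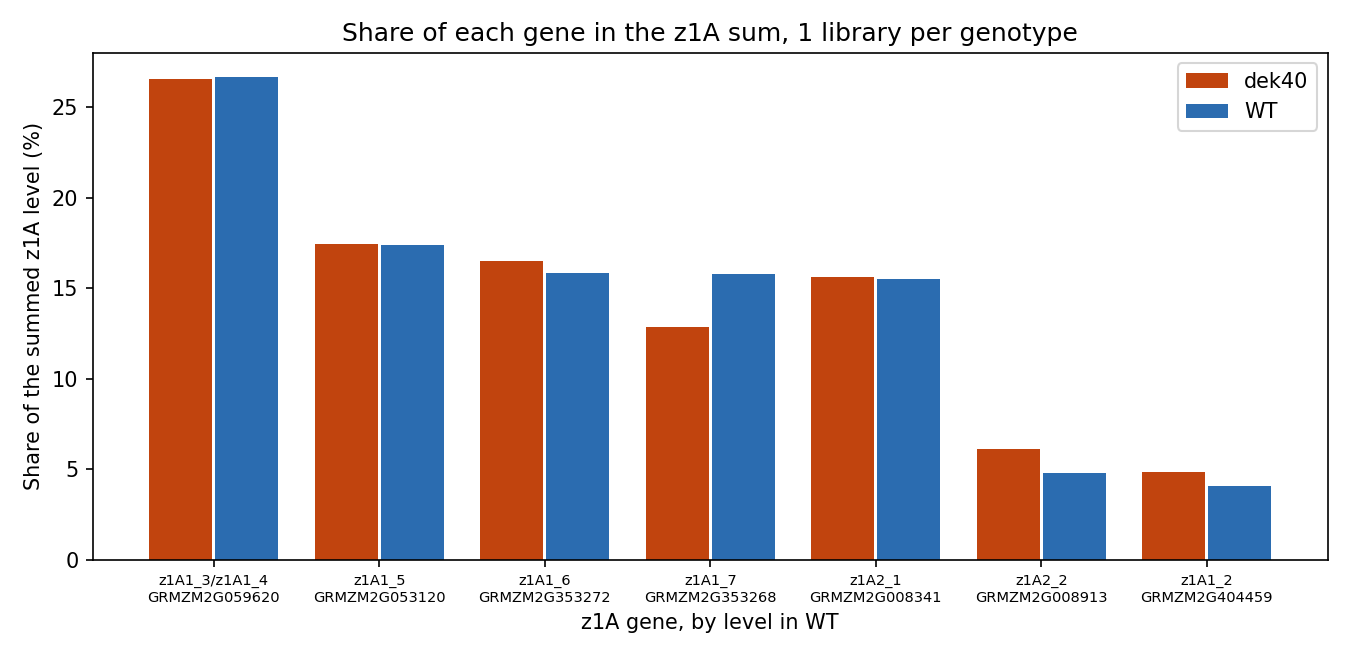
Share of each gene in the summed level of the 7 z1A genes (percent) in dek40 and in WT, ordered by level in WT. GRMZM2G353268 shows the largest gap between the libraries among the 7, at 12.9% in dek40 and 15.8% in WT.

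Further genes with a z1A symbol, outside the list, were also lower. GRMZM2G026939 (z1A2_3) was at 142 RPKM in dek40, against 733 FPKM in WT, a log2 ratio of -2.78 (-2.89 to -2.70). GRMZM2G018193 (z1A1_8) was at 2.45 RPKM in dek40, against 10.1 FPKM in WT, a log2 ratio of -1.97 with an interval of -3.56 to -1.50. The smallest whole reads behind it were 11 in dek40 and 50 in WT. The interval of GRMZM2G026939 lay above those of all 7 listed genes, while that of GRMZM2G018193 overlapped some of them.

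The other zeins were lower too, and the z1A genes lay at the low end of them. Of 19 alpha zein genes outside z1A, 19 were lower by 2-fold or more, with a median log2 ratio of -2.90 and a range of -3.59 to -1.56. Over the 10 of these at a mean of 1000 or more over scaled dek40 and WT, the median was -3.13. Only 2 of the 19 lay at or below the highest z1A ratio, and both are described as D1 type alpha zeins (AF546187.1_FG001 at -3.59 and AF546187.1_FG007 at -3.44). This edge is not sharp, since intervals of other genes overlapped that of GRMZM2G008913 (-3.29 to -3.21), the z1A gene with the highest ratio. Among them were GRMZM2G044625 (-3.25 to -3.22), GRMZM2G044152 (-3.28 to -3.18) and AF546188.1_FG007 (-3.22 to -3.18). By summed level the 12 z1C genes were 8.39-fold lower, and the 4 alpha zein genes known by description only were 9.30-fold lower. These 4 include AF546188.1_FG005 (Zein-alpha A20) at -3.18 and AF546188.1_FG007 (Zein-alpha 19C2) at -3.20. Their levels in WT, 23838 and 20506 FPKM, were above that of every listed z1A gene. The most abundant z1C gene, GRMZM2G044625, had a log2 ratio of -3.23, and the floury2 gene GRMZM2G397687 one of -3.08.

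The 5 gamma, beta and delta zeins had a median log2 ratio of -2.93, and 1 of them, the gamma zein gz50 (GRMZM2G138689, -3.59), lay within the z1A range. The others were the delta zein dzs18 (GRMZM2G100018) at -3.11, zp16 (GRMZM2G060429) at -2.93, zp15 (GRMZM2G086294) at -2.77 and the gamma zein gz27 (GRMZM2G138727) at -1.71. The z1A genes made up 14.6% of the summed zein level in dek40, against 24.8% in WT. The gamma, beta and delta zeins made up 55.9% in dek40, against 38.9% in WT. Of the summed level of these 5, gz27 alone held 17551 of 29973 RPKM in dek40, against 42888 of 110988 FPKM in WT. The zein shares thus lean on gz27, and shares without it were not computed. The lower share of z1A within the zeins does not depend on the scaling, since each share is taken within its own library. Single alpha zein genes may share reads across subfamilies, which was not measured.

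**Figure D4:**
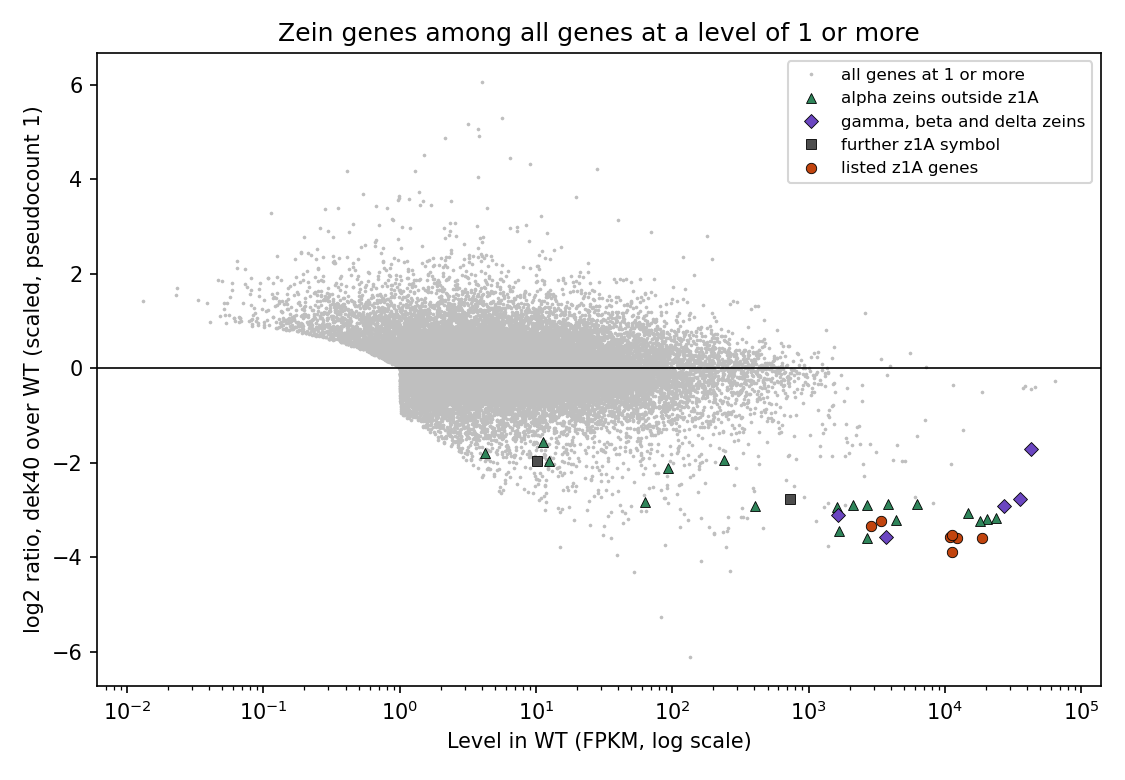
Log2 ratio of dek40 over WT (scaled, pseudocount 1) against the level in WT (FPKM, log axis) for the 28178 genes at a level of 1 or more in at least 1 library (grey), with the listed z1A genes as circles, further z1A genes as squares, other alpha zeins as triangles and the remaining zeins as diamonds. The listed z1A genes lie between -3.89 and -3.25, and gz27, the most abundant zein, lies nearest to 0 among the abundant zeins at -1.71.

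Among the 119 genes at 1000 FPKM or more in WT, the 7 z1A genes held ranks between 1 and 12 from the lowest ratio. The 95 of these 119 genes that are no zein had log2 ratios as low as -3.76. Among the 99 genes whose mean over scaled dek40 and WT was 1000 or more, the 7 held ranks between 1 and 10. GRMZM2G353268 held the lowest ratio. Of the 78 of these genes that are no zein, 28 were lower by 2-fold and 1 was higher. Their median log2 ratio was -0.42 after scaling and 0.00 as deposited, so the direction for abundant genes outside the zeins rests on the scaling. Across the 1448 genes that are no zein and were at 100 FPKM or more in WT, the 5 with a log2 ratio nearest to the z1A median lay between -3.56 and -3.46. They were GRMZM2G518465 and GRMZM2G406170, without a description, GRMZM2G032145 and GRMZM2G123411, described as uncharacterized, and GRMZM2G115340, described as a low-molecular-weight cysteine-rich protein. This likeness is over 1 pair of libraries.

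Of the known activators of zein genes, opaque-2 and PBF were lower, by less than the z1A genes. Opaque-2 (GRMZM2G015534), a bZIP factor that binds alpha zein promoters and acts above all on the 22-kDa class, was at 161 RPKM in dek40, against 310 FPKM in WT, a log2 ratio of -1.36 (-1.53 to -1.20). The prolamin-box binding factor PBF (GRMZM2G146283), a Dof factor, was at 43.0 RPKM in dek40, against 75.8 FPKM in WT, a log2 ratio of -1.21 (-1.44 to -1.03). As deposited, both were lower by less than 2-fold, at -0.94 for opaque-2 and -0.82 for PBF. The partner of opaque-2 named OHP2 (GRMZM2G007063) had a log2 ratio of 0.18 (-0.18 to 0.57), or 0.61 as deposited. Its relative OHP1 (GRMZM2G016150) was at 1.33 RPKM in dek40, against 0.473 FPKM in WT. The log2 ratio of OHP1 was 0.44 with the pseudocount, which weighs heavily at this level, and its counting interval without one was -0.09 to 2.37. As deposited, with neither scaling nor pseudocount, it was 1.49. Floury1 (GRMZM2G094532), a protein body membrane protein that places the 22-kDa alpha zeins, had a log2 ratio of -1.68.

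Zeins mark starchy endosperm, and they made up 3.87% of the summed level of all genes in dek40, against 19.8% in WT. In bulk endosperm, fewer starchy cells and less zein RNA per cell cannot be told apart. Of the markers of other parts of the kernel, 7 of 7 basal transfer layer genes were lower. Their median log2 ratio was -3.09, with a range of -3.76 to -1.16. Their summed level was 426 RPKM in dek40, against 2824 FPKM in WT. In the embryo list, 1 of 3 genes was lower, with a sum of 484 RPKM in dek40, against 674 FPKM in WT. Of the 3 aleurone genes, 1 was lower and 1 was higher. Their sum of 7898 RPKM in dek40, against 2765 FPKM in WT, is almost wholly that of the AL-9 gene GRMZM2G091054, at 7778 RPKM in dek40 and 2607 FPKM in WT. The others were Nkd1 (GRMZM2G129261) at -1.04 and Nkd2 (GRMZM5G884137) at -0.24 on the log2 ratio scale. Photosystem and chlorophyll-binding genes, which mark green maternal tissue, were lower in 3 of 11 cases and higher in 1, with a sum over 21 genes of 30.0 RPKM in dek40, against 43.3 FPKM in WT. The files list 0 genes at 0, so a marker without reads could not appear in these lists. The part of these tissues in the z1A difference was not tested.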

How the data were processed

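Bowtie2 2.1.0 and the maize build B73 RefGen v3 are named in the submitters' processing notes. The sources used here do not give the counting, the annotation or the gene filters. The authors deposited 1 RPKM value per gene for dek40 and 1 FPKM value per gene for WT, per the file headers. Both tables held the same 41406 genes, with 0 genes at 0. Whether the differently headed units are equal could not be checked. The ratios of the columns equalled whole-number fractions times 1.1020 for all 41406 genes (relative tolerance 1e-12), which implied totals of 14218436 for dek40 and 15669149 for WT, up to a common factor. The smallest whole reads of each gene are a lower bound and served for exact Clopper-Pearson 95% intervals only. No count test was run. Scaling used the median of 25115 genes, and calls needed a level of 1 after scaling. How reads on near-identical copies were counted is not given.

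Symbols came from RefSeq (Zm-B73-REFERENCE-NAM-5.0), where 16689 identifiers matched. The files use another build, so coordinates are not printed. The chromosome, gene order, clusters and the lengths that limit the read multiples still come from this RefSeq build. Promoter and protein sequences were not used here. Zeins were taken by the word in the description or by symbol. All members, the other zeins by counts and range, named regulators and the 5 nearest other genes were the genes to name. GRMZM2G018193, GRMZM2G026939 and the set of genes at a mean of 1000 or more were chosen after their values were seen. The split of the copies at 10000 FPKM and the set of genes at 1000 FPKM or more in WT were not planned beforehand. Some single alpha zeins outside z1A were also named by their values. The members and lists were chosen with earlier results of these data known. The recovery of whole reads, the scaling and the calls were checked on simulated data, in which no reads were shared between genes. That check did not cover the counting intervals, the length multiples or the split of reads between close copies. Python 3.11.15, numpy 2.4.6, pandas 2.3.3 and scipy 1.17.1 were used.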

Additional observations from a re-analysis of the deposited data

How the results depend on the processing

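All 7 z1A genes stayed lower by 2-fold or more under every scaling and pseudocount tried. With the values as deposited the z1A median log2 ratio was -3.17 and the summed ratio -3.18. With each library scaled to its own sum without zeins these were -3.37 and -3.38. With genes at 5 or more setting the scaling, the summed ratio was -3.56. Leaving the zeins out of the scaling, or a pseudocount of 5 or 0.1, moved them by less than the counting interval. With the 2 further z1A genes, an alternative chosen after seeing the data, 9 of 9 were lower and the median was -3.53. Over the scaling and pseudocount settings the 7 listed copies ranged from -3.89 to -2.83. Counted as implied reads, with lengths limited by the RefSeq gene models, the z1A genes took 0.553% of dek40 and 5.001% of WT. Set against the sum of all other genes, the WT share was 5.18%. No paired analysis was possible because each genotype has 1 library, and for the same reason no replicate could be left out. Depth does not limit the listed copies, while z1A1_8 is limited by its few reads.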

Other observations

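Apart from GRMZM2G404459, the implied lengths of the z1A genes were close to each other once multiples limited by the RefSeq gene models were taken. The smallest whole reads implied lengths of 702 bases for GRMZM2G053120 and GRMZM2G353268, 700 for GRMZM2G008913 and 802 for GRMZM2G404459. Those of GRMZM2G059620 and GRMZM2G353272 came out at 234 and 351, and 702 is a multiple of each. That of GRMZM2G008341 was not whole, and 3 times it is 700. Over all genes, 80.1% of the smallest lengths were whole numbers as they stood, and 99.6% were whole after a multiple of up to 50. RefSeq holds 12 entries with a z1A symbol, and 8 of them carry an identifier of the 7 listed genes.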
